A study of Mus musculus with 8 samples.

Results

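Genes of red cell precursors and of haemoglobin were followed in pancreatic tumours through 9 members: Slc4a1, Hemgn, Car1, Klf1, Alas2, Hba-a1, Hba-a2, Hbb-bs and Hbb-bt. They are the rows of the count table that carry these 9 names, out of 54532 genes, and each name matched 1 row. They were chosen by their measured counts, with earlier results of these data known: the contrast between TLQP21 and Saline and the spread between libraries. Their values along those lines are therefore a description and carry no test. All 9 passed the filter on low counts, as did 18238 genes in all. Hemgn and Car1 passed it through a subset of libraries only, which is given with their values.

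The study sequenced RNA from 8 pancreatic tumours of C57BL/6 mice, 4 given the peptide TLQP21, which is a fragment of the secreted neuronal protein VGF, and 4 given saline, each for 2 weeks. All mice carried an orthotopic graft of KPC cells, cultured cells of murine pancreatic ductal cancer, placed in the pancreas. The study asked what goes with the reduced growth of these tumours under the peptide. The labels name the cell line and no age or sex, and they do not say whether each library came from its own animal, so spreads and p-values refer to these libraries and may be partly technical. The KPC line is a single implanted line, and the host is a mouse with its own blood and pancreas. The label for the cell type reads as tumour cells, but the RNA came from whole tumours. Krt19, a ductal keratin, lay at 968 to 1332 CPM (counts scaled to library size by TMM factors) and Epcam at 536 to 810.1. The leukocyte gene Ptprc lay at 108 to 176 CPM in these samples.

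Libraries held 29027480 to 33536087 counts with TLQP21 and 28358465 to 28963457 with Saline. Libraries 3 and 4 of each treatment had 2027 to 2247 reads of 4 Y-linked genes, and libraries 1 and 2 of each had 9960 to 10625 reads of Xist, a long RNA made from the inactivated X. Both treatments thus had 2 libraries of each kind, called Y-linked and Xist libraries below, a split that the labels do not mention. It was found in the data and is not a group of the study, and what lies behind it was not tested. Libraries stood apart in other tissues too. The summed hepatocyte list was at 4588 CPM in Saline 2 and at 6.43 to 9.91 CPM in the other 7. Summed acinar enzymes spanned 8420 to 42007 CPM and were highest in Saline 4. For the 9 genes themselves Saline 3 stood highest, with 44109 reads in all, against 10455 to 24166 in the others.

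Red cells arise from nucleated erythroblasts that fill with haemoglobin, push out their nucleus and enter the blood as reticulocytes. Klf1 is the zinc-finger factor that, with Gata1, drives most genes of this lineage, and Hemgn is a nuclear protein of haematopoietic cells that Gata1 activates. Slc4a1 encodes band 3, the chloride-bicarbonate exchanger of the red cell membrane, and Car1 a carbonic anhydrase of the red cell cytosol. Alas2 is the erythroid enzyme that begins haem synthesis. Hba-a1 and Hba-a2 encode alpha globin and Hbb-bs and Hbb-bt adult beta globin. Globin and Alas2 RNA persists in reticulocytes after the nucleus is lost, whereas Klf1 and Hemgn are made in nucleated precursors. Slc4a1, Hemgn, Car1 and Klf1 are called precursor genes below for brevity. In adult mice red cells are made in bone marrow and spleen. Slc4a1 is also expressed in kidney and Car1 in colon.

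The genes lie on 6 chromosomes (GRCm38, strand in words), and all 9 positions match GENCODE M21, where each is protein-coding. Slc4a1 (ENSMUSG00000006574) spans chr11:102348824-102366203 on the minus strand, Hemgn (ENSMUSG00000028332) chr4:46393989-46413506, minus, and Car1 (ENSMUSG00000027556) chr3:14766216-14808368, minus. Klf1 (ENSMUSG00000054191) spans chr8:84901928-84905291 on the plus strand and Alas2 (ENSMUSG00000025270) chrX:150547375-150570638, plus. The alpha pair is adjacent on the plus strand, Hba-a1 (ENSMUSG00000069919) at chr11:32283511-32284465 and Hba-a2 (ENSMUSG00000069917) at chr11:32296489-32297298. The beta pair is on the minus strand, Hbb-bs (ENSMUSG00000052305) at chr7:103826534-103828096 and Hbb-bt (ENSMUSG00000073940) at chr7:103812524-103813996.

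Promoters of the members are shown so that their letters can be set beside the values that follow. The members did not all move together: Hemgn differed more between the kinds of library than the globins did. Whether the letters bear on the values was not tested. RefSeq (GRCm38.p6) gave windows from 250 bases before to 50 after the start for 7 of the 9; Slc4a1 and Car1 are named only. These starts lie inside the gene bounds above. Capitals mark the GATA words AGATAA and TGATAA and the Klf-type words CACACCC and CCCCACCC, read on both strands.
Hemgn, chr4:46404134-46404433, minus strand: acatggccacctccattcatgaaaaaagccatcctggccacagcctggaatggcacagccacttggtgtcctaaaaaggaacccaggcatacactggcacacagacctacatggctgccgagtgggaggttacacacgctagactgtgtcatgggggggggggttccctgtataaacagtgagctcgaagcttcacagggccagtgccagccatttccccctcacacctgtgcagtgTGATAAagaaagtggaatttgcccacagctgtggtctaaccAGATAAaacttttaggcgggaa
Klf1, chr8:84901732-84902031, plus strand: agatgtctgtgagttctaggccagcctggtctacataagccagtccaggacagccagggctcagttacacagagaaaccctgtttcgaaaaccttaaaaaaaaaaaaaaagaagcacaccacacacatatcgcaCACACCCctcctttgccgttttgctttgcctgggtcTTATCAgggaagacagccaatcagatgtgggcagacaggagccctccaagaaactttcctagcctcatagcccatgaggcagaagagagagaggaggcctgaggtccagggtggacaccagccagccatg
Alas2, chrX:150547167-150547466, plus strand: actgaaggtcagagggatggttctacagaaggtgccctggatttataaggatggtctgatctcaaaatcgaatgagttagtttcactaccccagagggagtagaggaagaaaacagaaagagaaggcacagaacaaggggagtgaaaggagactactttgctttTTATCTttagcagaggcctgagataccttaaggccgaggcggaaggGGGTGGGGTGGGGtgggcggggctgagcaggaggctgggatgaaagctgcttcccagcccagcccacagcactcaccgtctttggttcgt
Hba-a1, chr11:32283422-32283721, plus strand: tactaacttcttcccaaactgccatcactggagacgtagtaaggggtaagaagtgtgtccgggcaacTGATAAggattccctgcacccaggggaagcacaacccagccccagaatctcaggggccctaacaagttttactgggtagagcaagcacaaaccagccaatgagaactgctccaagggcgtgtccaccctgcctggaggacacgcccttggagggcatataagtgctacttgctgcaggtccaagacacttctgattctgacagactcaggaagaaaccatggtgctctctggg
Hbb-bs, chr7:103827879-103828178, minus strand: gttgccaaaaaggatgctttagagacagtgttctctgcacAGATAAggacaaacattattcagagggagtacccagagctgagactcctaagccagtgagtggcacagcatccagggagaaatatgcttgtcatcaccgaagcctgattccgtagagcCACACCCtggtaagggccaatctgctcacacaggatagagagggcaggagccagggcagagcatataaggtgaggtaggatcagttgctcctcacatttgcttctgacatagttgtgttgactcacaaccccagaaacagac
Hbb-bt, chr7:103813874-103814173, minus strand: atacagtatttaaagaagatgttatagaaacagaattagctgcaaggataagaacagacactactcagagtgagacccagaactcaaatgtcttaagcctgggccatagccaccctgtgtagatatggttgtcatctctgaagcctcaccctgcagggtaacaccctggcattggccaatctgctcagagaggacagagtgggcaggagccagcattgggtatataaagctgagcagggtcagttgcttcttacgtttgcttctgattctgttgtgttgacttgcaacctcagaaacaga
A GATA word was in 6 of the 7 windows, against 18.6% of 32851 mouse promoters of the same length, and the window without one was that of Hbb-bt. In Hemgn one word lay 13 bases before the start and another 28 after it. A Klf-type word was in 3 of the 7, those of Klf1, Alas2 and Hbb-bs, against 16.9% of all promoters; in Alas2 a pair of CCCCACCC matches overlaps. CCACACCC, which contains CACACCC, was in that of Hbb-bs only, and in 3.56% of all. CCAAT was in 5 of the 7 (37.4% of all) and TATAAA in 3 (13.6%). These are matches of letters and no measured sites. The window of Hba-a2 was identical to that of Hba-a1 over the 297 bases they share, with the starts offset by 3 bases.

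The globin pairs are near-identical copies, which bears on every count of a single globin gene. Their coding sequences differ at 1 base in 426 for alpha and at 1 base in 441 for beta, shown in capitals in the stretches around it.
Hba-a1, coding bases 351 to 411: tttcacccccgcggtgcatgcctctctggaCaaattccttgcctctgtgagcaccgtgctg
Hba-a2, coding bases 351 to 411: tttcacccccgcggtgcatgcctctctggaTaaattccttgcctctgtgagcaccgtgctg
Hbb-bs, coding bases 381 to 441: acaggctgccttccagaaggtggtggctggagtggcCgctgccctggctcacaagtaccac
Hbb-bt, coding bases 381 to 441: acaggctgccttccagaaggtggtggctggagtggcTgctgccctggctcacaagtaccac
Of coding windows as long as the 150-base reads, 83.4% were shared within the alpha pair and 91.4% within the beta pair. Over whole transcripts, untranslated parts included, the shared windows were 48.4% of those of Hba-a1, 65.7% of Hba-a2, 58.7% of Hbb-bs and 50.7% of Hbb-bt. Reads from shared windows cannot be placed by sequence, and the handling of such reads in the counting is not given in the sources used here. Values of the single copies are therefore uncertain, and sums over each pair are given beside them.

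Per kilobase of gene model, the 8-library mean level was highest for Hbb-bs, at 404 CPM per kb, followed by Hba-a1 at 289. Hbb-bt stood at 75.9 and Hba-a2 at 46.3 CPM per kb. Alas2 was at 10.995, Slc4a1 at 7.29, Car1 at 3.71, Klf1 at 2.51 and Hemgn at 2.15 CPM per kb. The spread over libraries ran the other way: the coefficient of variation of CPM was 123 to 150.4% for the 4 precursor genes, 67.1% for Alas2 and 44.0 to 56.2% for the 4 globins. The precursor genes thus varied more between tumours than the abundant globin RNA did, and neighbouring precursor genes in the order of levels did not differ beyond that spread.

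**Figure D1:**
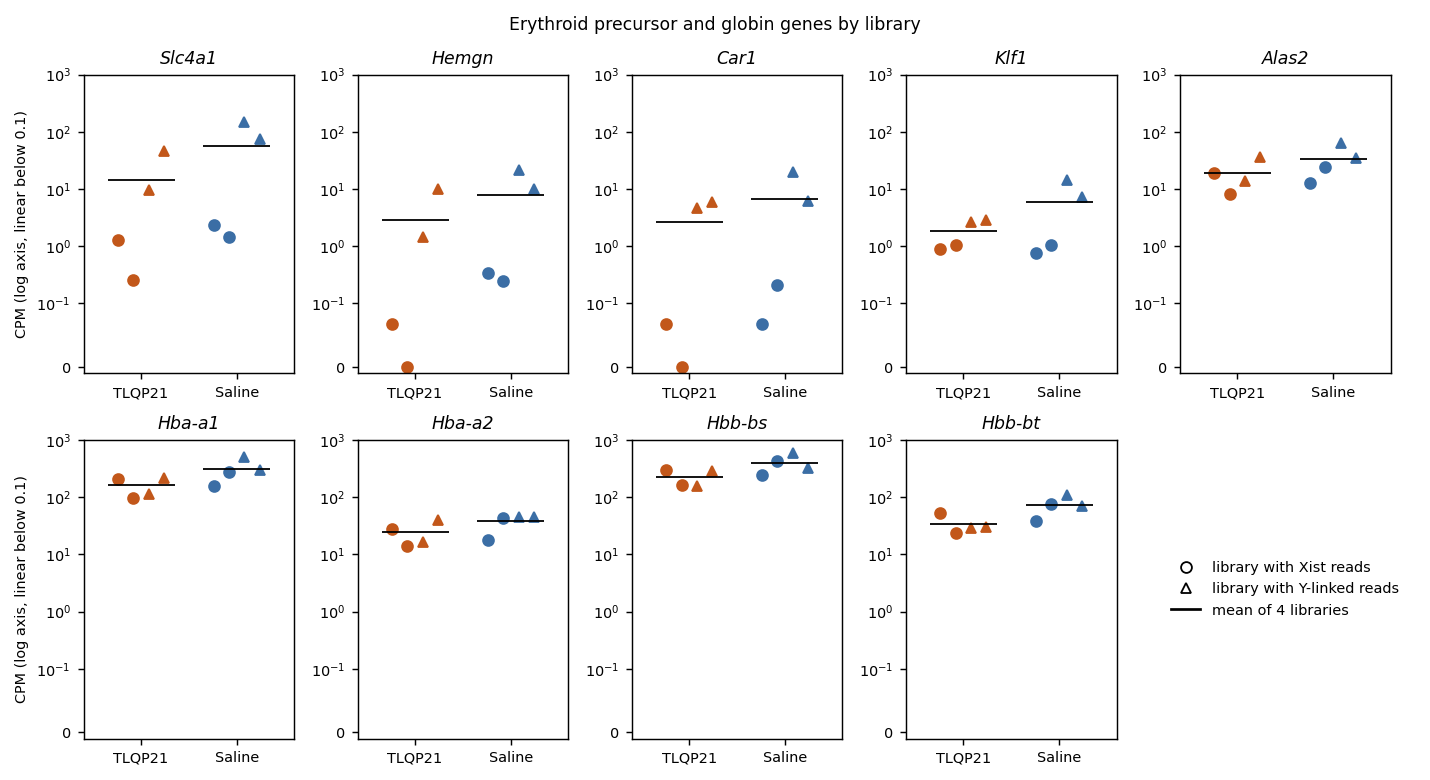
Level of each of the 9 genes in every library, as CPM on an axis that is logarithmic above 0.1 and linear below it; TLQP21 libraries stand left of Saline libraries, circles are Xist and triangles Y-linked libraries, and bars are means of 4. For Slc4a1, Hemgn, Car1 and Klf1 every triangle lies above every circle, while for the 4 globins the kinds overlap, as the treatments do for all 9 genes.

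Slc4a1 was the most abundant of the precursor genes. Its CPM was 1.30, 0.259, 9.63 and 45.6 in TLQP21 1 to 4, and 2.38, 1.47, 150.4 and 74.2 in Saline 1 to 4. Libraries 3 and 4 of both treatments were high and libraries 1 and 2 low, and the treatments overlapped. In reads, that was 9 to 1477 with TLQP21 and 42 to 4382 with Saline. With 9 reads in TLQP21 2, its Xist libraries alone would have fallen just short of the filter, which asks for about 10 reads in 4 libraries.

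Hemgn followed the same order of libraries, except that TLQP21 4 and Saline 4 changed places. Its CPM was 0.0684, 0, 1.46 and 10.04 in TLQP21 1 to 4, and 0.340, 0.245, 21.3 and 9.83 in Saline 1 to 4. TLQP21 4 lay at the level of Saline 4, and the treatments overlapped. No read was counted in TLQP21 2, which allows up to 0.0895 CPM there (3 counts; counting error only).

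Car1 was at 0.0684, 0, 4.58 and 5.99 CPM in TLQP21 1 to 4, and at 0.0681, 0.210, 19.9 and 6.17 in Saline 1 to 4. The 4 Xist libraries held 0 to 6 reads each and the 4 Y-linked libraries 138 to 581. As with Hemgn, TLQP21 2 had no read. Car1 had at least 10 reads in 4 libraries and Hemgn in 5; both passed the filter only through the Y-linked libraries, so a difference between the kinds was built into their passing.

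Klf1, the lineage factor, was at 0.889, 1.04, 2.69 and 2.87 CPM in TLQP21 1 to 4, and at 0.749, 1.05, 14.3 and 7.11 in Saline 1 to 4. It was the least uneven of the 4 precursor genes. Its Xist libraries lay within 0.749 to 1.05 CPM in both treatments. In the Y-linked libraries the TLQP21 pair lay below the Saline pair.

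Alas2, at 19.1, 8.09, 14.05 and 35.9 CPM in TLQP21 1 to 4 and 12.7, 24.1, 62.5 and 34.9 in Saline 1 to 4, was present in every tumour. Saline 3 was highest and TLQP21 2 lowest. Unlike for the precursor genes, Xist and Y-linked libraries overlapped.

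Alpha globin showed a narrower range than the precursor genes. Hba-a1 was at 211, 94.6, 114.5 and 219 CPM in TLQP21 1 to 4, and at 154, 275, 507 and 301 in Saline 1 to 4. Hba-a2 was at 27.5, 13.7, 16.1 and 39.4 CPM in TLQP21 1 to 4, and at 18.0, 42.3, 45.03 and 45.01 in Saline 1 to 4. For both, 2 TLQP21 libraries lay above Saline 1, so the treatments overlapped. The excess of Saline 3 seen in Hba-a1 was absent from Hba-a2, where Saline 2, 3 and 4 lay close together.

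Beta globin did much the same. Hbb-bs was at 294, 159.6, 157 and 290.2 CPM in TLQP21 1 to 4, and at 245, 426, 583 and 327 in Saline 1 to 4. Hbb-bt was at 52.4, 23.7, 28.3 and 30.4 CPM in TLQP21 1 to 4, and at 38.1, 75.6, 109.5 and 68.7 in Saline 1 to 4. Saline 1 was again the lowest Saline library and lay within the TLQP21 range of both genes. For Hbb-bt, TLQP21 1 alone lay above it.

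The 4 globins together were 0.0589, 0.0302, 0.0316 and 0.0572% of counts in TLQP21 1 to 4, and 0.0462, 0.0810, 0.127 and 0.0692% in Saline 1 to 4. Exact binomial 95% intervals ran from 0.0296 to 0.0308% for the lowest library, TLQP21 2, and from 0.126 to 0.129% for the highest, Saline 3, and cover counting error only. Reads of the 4 precursor genes were 68, 45, 553 and 2089 in TLQP21 1 to 4, and 104, 85, 6001 and 2572 in Saline 1 to 4. Set against globin, that was 3.98, 4.44, 58.1 and 111 precursor reads per 1000 globin reads in TLQP21 1 to 4, and 7.77, 3.63, 165 and 131 in Saline 1 to 4. The ratio fell into 2 separate ranges, 58.1 to 165 in the Y-linked libraries and 3.63 to 7.77 in the Xist libraries, and overlapped between treatments. TLQP21 3 shows the contrast with globin most plainly: its globin share was the second lowest of all, yet its precursor ratio lay far above that of any Xist library.

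**Figure D2:**
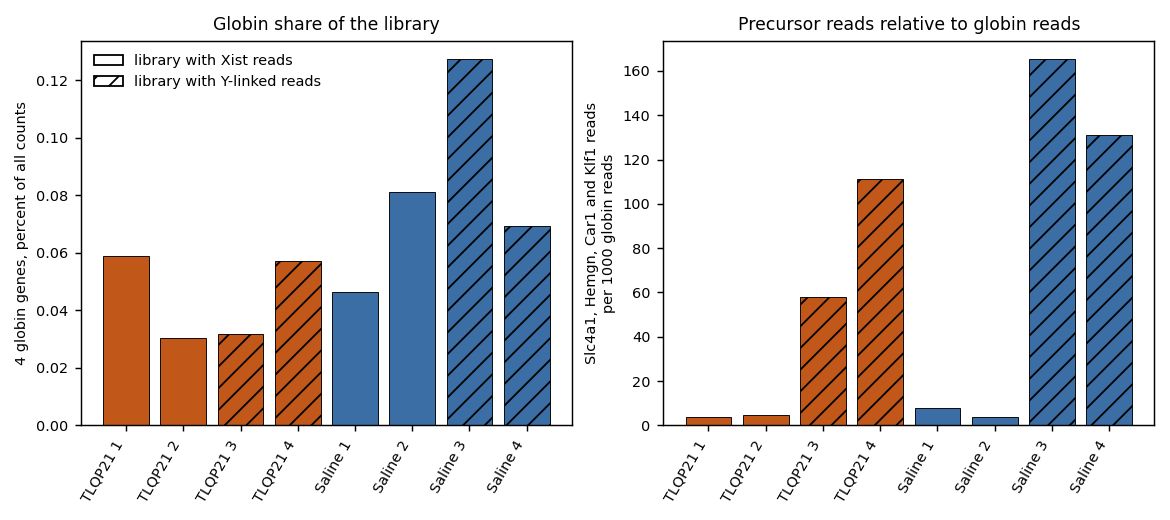
Left, the 4 globin genes as a percentage of all counts in each library; right, Slc4a1, Hemgn, Car1 and Klf1 reads per 1000 globin reads; TLQP21 libraries come before Saline libraries and hatched bars are Y-linked libraries. The globin share spans 0.0302 to 0.127% with no order by kind, while the ratio is 58.1 to 165 in hatched bars and 3.63 to 7.77 in open bars.

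Haem synthesis lay between these patterns. Alas2 reads per 1000 globin reads were 32.6, 27.7, 44.5 and 62.0 in TLQP21 1 to 4, and 27.9, 29.5, 50.2 and 47.1 in Saline 1 to 4. All Y-linked libraries were above all Xist libraries, by far less than for the precursor genes. The ratio of alpha to beta reads was 0.687, 0.591, 0.705 and 0.807 in TLQP21 1 to 4, and 0.608, 0.632, 0.797 and 0.875 in Saline 1 to 4. It too was higher in every Y-linked library (0.705 to 0.875) than in any Xist library (0.591 to 0.687).

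Within the pairs, Hba-a1 had 5.57 to 7.65 times the reads of Hba-a2 with TLQP21 and 6.50 to 11.3 times with Saline, and Saline 3 was the highest. Hbb-bt made up 9.47 to 15.3% of beta reads with TLQP21 and 13.5 to 17.4% with Saline, with the lowest share in TLQP21 4. These within-pair values share the copy uncertainty above.

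Against Saline, all 9 genes had lower fitted levels with TLQP21, and none passed the threshold of the edgeR quasi-likelihood fit over all genes. That fit called 0 of 18238 genes at a Benjamini-Hochberg adjusted p under 0.05 (percent called 0), with 558 at an unadjusted p under 0.05; DESeq2 called 4 and limma voom 1, none of them among the 9. A fitted value below 0 was found for 49.4% of all genes tested. No member's ranges separated by treatment, against 1.66% of all genes in either direction and 0.844% with every TLQP21 library lower. Since this contrast was known when the 9 were chosen, nothing is read from these counts. In bulk tumours, fewer cells of a type and less RNA per cell cannot be told apart.

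Among precursor genes the log2 fold change (TLQP21 over Saline) was -2.01 (SE 1.52) for Slc4a1, whose CPM averaged 14.2 ± 21.4 with TLQP21 and 57.1 ± 70.9 with Saline (SD, n = 4 each). Klf1 was at -1.63 (SE 0.85), with 1.87 ± 1.05 CPM with TLQP21 and 5.81 ± 6.40 with Saline. Hemgn was at -1.45 (SE 1.56) and Car1 at -1.31 (SE 1.56). For each of these genes the SD in Saline exceeded the mean, as it did with TLQP21 for Slc4a1, Hemgn and Car1. In limma voom with sample quality weights the log2 fold change was larger for Slc4a1 (-2.93), Hemgn (-4.07) and Car1 (-2.88) and smaller for Klf1 (-0.43). With the kind of library as a covariate, Klf1 was at -1.04.

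The globins had smaller differences with smaller errors. Hbb-bt was at -1.12 (SE 0.32), with 33.7 ± 12.8 CPM with TLQP21 and 73.0 ± 29.3 with Saline. Hba-a1 was at -0.95 (SE 0.37), Hbb-bs at -0.81 (SE 0.30) and Hba-a2 at -0.64 (SE 0.37). With copies summed, the log2 fold change was -0.92 (SE 0.37) for alpha and -0.86 (SE 0.30) for beta, so the pairs lay close together. Alas2 was at -0.80 (SE 0.52), within the range of the globins.

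Saline 3 carried much of this difference, holding 46.8 to 53.5% of all reads of each precursor gene and 18.0 to 26.8% of those of each globin. Without it the log2 fold change was -0.87 for Slc4a1, -0.66 for Klf1, -0.26 for Hemgn and -0.31 for Alas2, and that of Car1 turned to 0.32. The globins were then at -0.61 (Hba-a1), -0.54 (Hba-a2), -0.56 (Hbb-bs) and -0.85 (Hbb-bt). Leaving out TLQP21 4 moved values the other way, to -3.96 for Slc4a1 and -3.98 for Hemgn. With neither Saline 3 nor TLQP21 4 in the fit, chosen after seeing the data, Slc4a1 was at -2.83, Hemgn at -2.80 and Klf1 at -0.96, the globins were at -0.71 to -0.88 and Alas2 at -0.81, while Car1 no longer passed the filter.

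Within the kinds of library, differences of mean log2 CPM can be compared 2 against 2. In Y-linked libraries they were -2.33 for Slc4a1, -1.89 for Hemgn, -1.07 for Car1, -1.84 for Klf1 and -1.05 for Alas2, and -0.83 to -1.56 for the globins. In Xist libraries they were -1.54 for Slc4a1, -1.91 for Hemgn, -1.02 for Car1, 0.11 for Klf1 and -0.49 for Alas2, and -0.50 to -0.61 for the globins. The values for Hemgn and Car1 in Xist libraries rest on 0 to 10 reads per library. All 4 globins lay below 0 in both kinds, and Klf1 alone changed sign. The fit of treatment by kind called 0 of 18238 genes (percent called 0), with 876 at an unadjusted p under 0.05; DESeq2 called 19, none of the 9. Its term for Klf1 was -2.05 (SE 0.55).

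**Figure D3:**
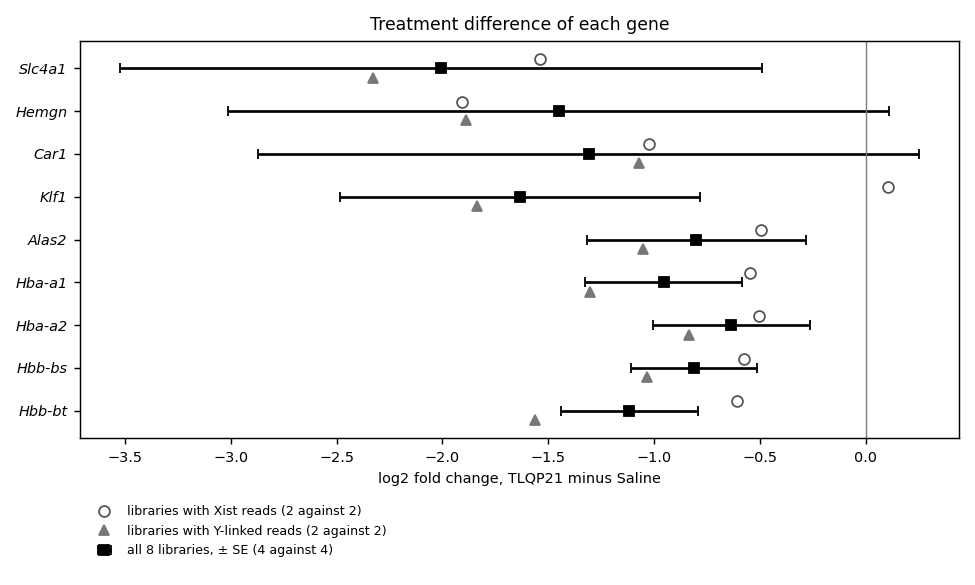
Log2 fold change of each gene, TLQP21 minus Saline: squares are the fit over all 8 libraries with bars of ± 1 SE, triangles are differences of mean log2 CPM within Y-linked and circles within Xist libraries. All squares lie below 0, from -2.01 for Slc4a1 to -0.64 for Hba-a2, and the circle of Klf1, at 0.11, is the only point above 0.

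For the 4 precursor genes and Alas2 the larger fitted difference lay between the kinds of library. For each of the 4 globins the treatment difference was the larger in size. With treatment held constant, the log2 difference (Y-linked minus Xist) was 6.74 (SE 0.60) for Car1, 6.15 (SE 0.77) for Hemgn and 5.58 (SE 0.63) for Slc4a1. For Slc4a1 that is 69.9 ± 59.8 CPM in Y-linked and 1.35 ± 0.871 CPM in Xist libraries (SD, n = 4 each). Klf1 was at 2.56 (SE 0.46), with 6.75 ± 5.46 CPM in Y-linked and 0.931 ± 0.142 CPM in Xist libraries. Alas2, itself X-linked, was at 1.15 (SE 0.39).

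The globins differed little along this line, with log2 differences of 0.52 for Hba-a1, 0.51 for Hba-a2, 0.21 for Hbb-bs and 0.14 for Hbb-bt, and SEs of 0.30 to 0.35. Y-linked libraries held 87.2 to 99.1% of the reads of each precursor gene, and 54.3 to 60.4% of those of each globin. The direction of Hbb-bs and Hbb-bt along this line rested on single libraries: without Saline 3 the values were -0.027 and -0.10, and without Saline 1 that of Hbb-bt was -0.13. Car1, Hemgn and Slc4a1 passed the edgeR threshold, which 44 genes did in that direction (0.241% of 18238), with 68 in either direction (0.373%). All 9 lay above 0, as did 52.2% of all genes. Every Y-linked library lay above every Xist library for these 3 and Klf1, as for 4.79% of all genes. The spread between libraries was among the reasons the 9 were chosen, and nothing is read from these counts.

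The difference was present in both treatments. Among TLQP21 libraries the Y-linked pair exceeded the Xist pair by 4.98 for Slc4a1, 5.37 for Hemgn, 5.81 for Car1 and 1.47 for Klf1 in mean log2 CPM. Among Saline libraries it did so by 5.77, 5.35, 5.85 and 3.41 for the same genes in that order. The values for Hbb-bs were -0.02 with TLQP21 and 0.43 with Saline, and for Hbb-bt -0.26 and 0.69.

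Other genes of the lineage were taken from 6 lists: transcription factors, membrane and surface proteins, other globins, haem synthesis, iron supply, and late enzymes and maturation. Of 72 such genes, 64 were tested. Against Saline, 57 lay below 0 with TLQP21, where 49.4% of all genes did, and edgeR called 0 of the 64. Their median log2 fold change was -0.27, against 0.00 over all genes. Between the kinds, 53 lay above 0 in Y-linked libraries, where 52.2% of all genes did. The median was 0.42, against 0.01 over all genes. In that fit 11 of the 64 were higher at an edgeR adjusted p under 0.05, against 0.241% of all genes, and 0 were lower. Of these 11, 5 had at least 10 reads in every library. The others fell short of that in Xist libraries, so, as with Hemgn and Car1, they passed the filter only through the Y-linked libraries and the difference was built into their passing. Together with the 3 members, the 11 were 14 of the 44 genes called higher. That count includes the genes whose difference was built into their passing. The lists were chosen with earlier results known, and nothing is read from these counts.

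Membrane and surface proteins held most of these calls, 10 of 16 tested, against 0.241% of all genes. The membrane skeleton genes Epb42 (protein 4.2), Sptb (beta spectrin) and Ank1 (ankyrin) rose by 5.06, 2.52 and 2.09 on the log2 scale in Y-linked libraries. So did the blood group and surface proteins Kel (5.83), Ermap (4.28), Rhd (4.21) and Rhag (2.87), and the claudin Cldn13 (6.44). The edgeR adjusted p-values of the genes named here were 0.00616 to 0.0297. Of them, Epb42, Kel, Rhd and Cldn13 passed the filter only through the Y-linked libraries, whereas Sptb, Ank1, Ermap and Rhag, as well as Gata1, had at least 10 reads in every library. Kel was at 0.103, 0.173, 0.996 and 6.45 CPM in TLQP21 1 to 4, and at 0.204, 0.0350, 19.3 and 9.38 in Saline 1 to 4, high in libraries 3 and 4 of both treatments as Slc4a1 was. Epb41, Cd44 and Aqp1, which other cells of a tumour also make, were at 0.27, 0.05 and 0.74 and were not called.

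Of the 11 genes in the list of transcription factors, which includes the erythropoietin receptor Epor, Gata1 alone was called, 3.07 higher in Y-linked libraries (SE 0.40, edgeR adjusted p = 0.0189). Its CPM was 0.376, 0.345, 1.39 and 2.44 in TLQP21 1 to 4, and 0.374, 0.525, 7.69 and 3.86 in Saline 1 to 4, much like Klf1. Gfi1b, a repressor of the erythroid and platelet lineages, was at 2.80 (SE 0.65), and Tal1, a partner of Gata1, at 1.56 (SE 0.39). Lmo2 (-0.11) and Ldb1 (-0.03), which bridge these factors and are widely expressed, were near 0.

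No gene of haem synthesis other than Alas2, iron supply or late maturation was called. The haem list had a median of 0.34 over 9 genes. The iron list had a median of 0.03 over 10, and Tfrc, the transferrin receptor, was at 0.07. The late list had a median of 0.20 over 17, with Tmcc2 at 1.85 (SE 0.33) and Car2, another carbonic anhydrase, at 1.67 (SE 0.28). The embryonic globins Hba-x, Hbb-bh1 and Hbb-bh2 had 0 reads in all 8 libraries, and Hbb-y had 2 at most. Cygb, a globin of fibroblasts, was the only other globin tested, at -0.34.

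**Figure D4:**
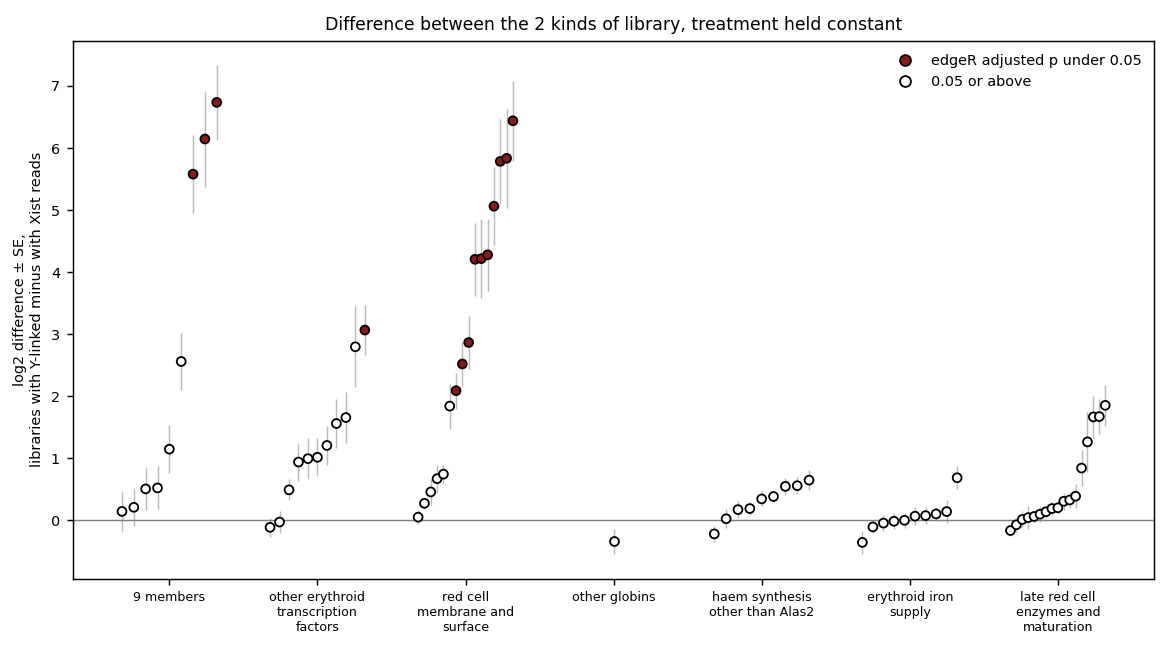
Log2 difference between kinds of library (Y-linked minus Xist, treatment held constant) for the 9 members and the tested genes of 6 further lists, 1 point per gene with bars of ± 1 SE; filled points passed the edgeR threshold. The filled points are 3 members, Gata1 and 10 membrane and surface genes, the highest being Car1 at 6.74, and the lists of haem synthesis, iron supply and late maturation lie between -0.36 and 1.85.

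Markers of other cells were read beside these values. Over all genes tested, 52.2% lay above 0 in Y-linked libraries and 49.4% below 0 with TLQP21. These lists too were chosen with earlier results known, and nothing is read from their counts. Platelet and megakaryocyte genes had 8 of 9 tested above 0 in Y-linked libraries (median 1.11). Tubb1, the platelet tubulin, was called (2.55, edgeR adjusted p = 0.0251), though it passed the filter only through the Y-linked libraries. Gp1bb was at 0 in every library, and the summed platelet list was at 43.7 to 81.9 CPM in Y-linked and 43.2 to 54.8 CPM in Xist libraries. Most of it was Pf4, at 23.5 to 51.6 CPM in Y-linked and 33.1 to 41.5 CPM in Xist libraries. Neutrophil precursor genes had 7 of 8 above 0 (median 1.87, none called). Their sum was 176 to 745 CPM in Y-linked and 234 to 410 CPM in Xist libraries, highest in Saline 4, where Mpo reached 51.0 CPM. Much of it was Ltf, at 117 to 332 CPM in Y-linked and 216 to 336 CPM in Xist libraries. Against Saline, all 8 lay below 0 with TLQP21 (median -1.75, none called), with sums of 176 to 312 CPM with TLQP21 and 313 to 745 CPM with Saline. So did all 7 neutrophil genes (median -0.67), with sums of 192 to 369 CPM with TLQP21 and 262 to 876 CPM with Saline, and 8 of 9 platelet genes (median -0.34). All 8 acinar genes (median -0.50) and all 6 tested hepatocyte genes lay below 0 as well, with none called; the hepatocyte values rest on Saline 2. The part of these cells in the results above was not tested.

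Tissues that make red cells or take them up gave mixed values. Of 9 genes of red pulp and erythrophagocytic macrophages, 6 lay above 0 in Y-linked libraries (median 0.11, none called). Their sum was 758 to 923 CPM in Y-linked and 652 to 770 CPM in Xist libraries. Most of it was Vcam1, at 500 to 602 CPM in Y-linked and 347 to 479 CPM in Xist libraries. Spic, the transcription factor of these macrophages, was at 3.03 to 5.66 CPM in Y-linked and 0.892 to 1.82 CPM in Xist libraries. Marco (-1.81), Cd163 (-0.49) and Hmox1 (-0.23) went the other way, lower in Y-linked libraries. Of 6 tested genes of spleen stroma and follicles, 4 lay above 0 (median 0.49, none called). Their sum was 16.8 to 25.5 CPM in Y-linked and 11.9 to 39.6 CPM in Xist libraries. Tlx1, a spleen factor, was at 0.340 to 1.83 CPM in Y-linked and 0.210 to 0.547 CPM in Xist libraries. Cxcl13 (-1.42) and Madcam1 (-0.72) of that list were lower in Y-linked libraries. Of 7 B cell genes, 5 lay above 0 (median 0.02). Their sum was 270 to 699 CPM in Y-linked and 175 to 1171 CPM in Xist libraries. Most of it was Ighm, at 247 to 669 CPM in Y-linked and 163 to 1115 CPM in Xist libraries. Blood progenitor genes had 4 of 6 above 0 (median 0.24, none called). Against Saline, all 9 macrophage genes and all 7 B cell genes lay below 0 with TLQP21 (medians -0.55 and -0.43, none called). Over all genes tested, 49.4% did. The part of these tissues in the results was not tested.

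For the organs where 2 of the members are also made, sums in Y-linked libraries were lower than in Xist libraries or overlapped them. The part of these organs in the results was not tested. The intercalated cell list of kidney summed to 4.36 to 8.59 CPM in Y-linked and 7.97 to 11.1 CPM in Xist libraries. Most of it was Atp6v0d2, at 3.64 to 8.03 CPM in Y-linked and 6.65 to 10.06 CPM in Xist libraries. Foxi1, the defining factor of these cells, had no read. The colon list summed to 743 to 909 CPM in Y-linked and 920.3 to 961 CPM in Xist libraries. Every Y-linked library thus lay below every Xist library. Most of the sum came from Lgals4, Krt20 and Vil1, genes that also occur in pancreatic tumours. Slc26a3, a transporter on the colon list, was at 0.172 CPM at most. Epo, the hormone that drives red cell production, had no read. Endothelial genes had a median of 0.02 over 9, with none called.

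**Figure D5:**
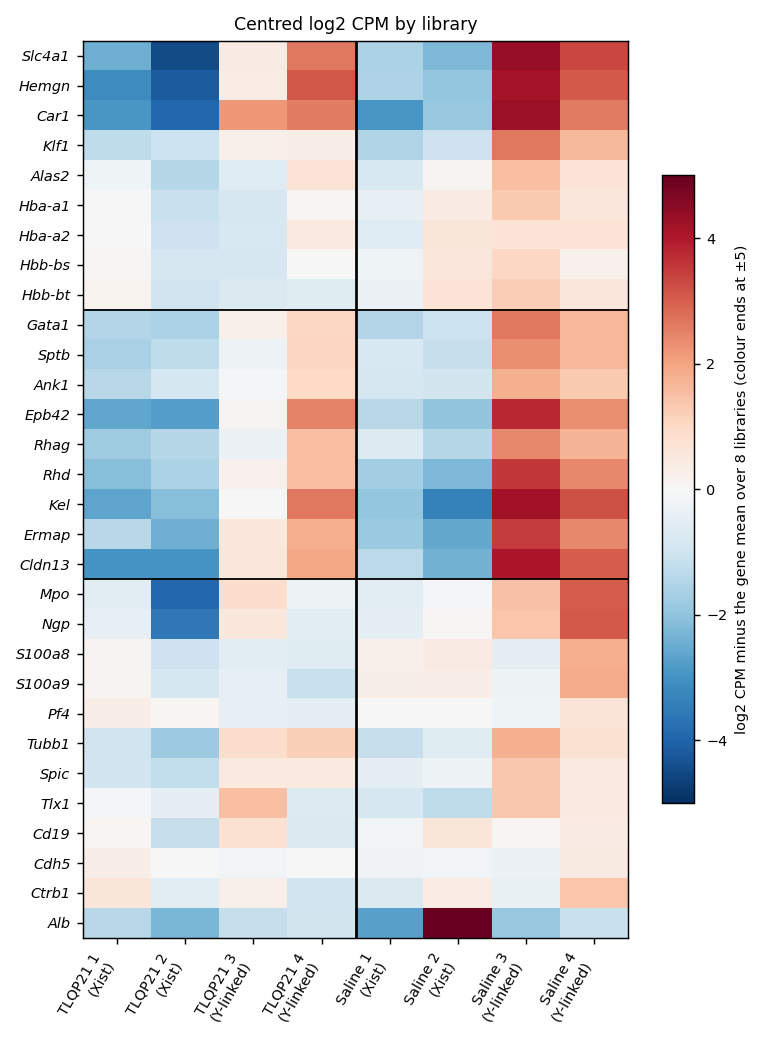
Level of each gene in each library as log2 CPM minus the mean of that gene over 8 libraries, with colour ends at ± 5; TLQP21 libraries stand left of Saline libraries. The rows are the 9 members, 9 of the other lineage genes called between the kinds, and markers of other cells. The precursor and lineage rows are red in TLQP21 4 (pale for Klf1), Saline 3 and Saline 4 and blue in libraries 1 and 2. In TLQP21 3 they are paler, and Sptb, Ank1 and Rhag lie slightly below their means there. The globin rows are pale, and Alb is red in Saline 2 alone.

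Likeness among the genes was measured as the root mean square difference of centred log2 CPM over the 8 libraries, where 0 means the same pattern. Slc4a1 and Hemgn were 0.36 apart (0.62 with a prior count of 0.5 in place of 2) and Hba-a1 and Hbb-bs 0.21. Alas2 and Hba-a1 were 0.33 apart, Klf1 and Alas2 0.89, and Slc4a1 and Hba-a1 2.53. Alas2 thus lay with the globins, and Klf1 between them and the other precursor genes. These distances share the same 8 libraries and their split.

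The genes outside the 9 that lay nearest to their mean pattern were Apol11b (0.30), Gata1 (0.37), Abcg4 (0.44), Trim10 (0.44), Sptb (0.44), Sele (0.47), Tubb1 (0.48), Gfi1b (0.49), Ank1 (0.52) and Tmcc2 (0.53), over 8 libraries. Among the nearest to the 4 precursor genes alone were Cldn13 (0.42), Epb42 (0.42), Btnl10 (0.59) and Ermap (0.62). Among the nearest to the 4 globins alone were 2810030D12Rik (0.30) and Gpr132 (0.31).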

How the data were processed

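The authors deposited whole-number read counts per gene for 8 libraries, not normalised. The submitters' processing notes name GRCm38 (mm10), DESeq2 1.32.0, HISAT2 2.0.5 and featureCounts 1.5.0-p3; the strand setting and the treatment of reads with several matches are not given in the sources used here. Per the labels' protocols, libraries were made with the NEBNext Ultra RNA kit and read as 150-base paired ends. Counts were fitted with edgeR 4.0.16 (quasi-likelihood, TMM scaling, filterByExpr with a minimum count of 10, Benjamini-Hochberg over 18238 genes, threshold 0.05), for treatment, for the kind of library with treatment as a term, and for their interaction; the fits were tested on simulated data. DESeq2 1.42.0 and limma 3.58.1 were alternatives. CPM are TMM-scaled, and likeness used a prior count of 2. Between 2 libraries, chi-square per degree of freedom was 20.9 or more, so none were duplicates. The 9 genes and all lists were chosen with earlier results of these data known. Genes named from the lists were, per list, up to 3 with the smallest unadjusted p for treatment and the most abundant. To these came any lineage gene called between the kinds. Named after their values were seen were Tal1, Ldb1, Tfrc, Car2, Aqp1, Mpo, Spic, Tlx1, Tubb1, Foxi1, Gp1bb, Epo, Slc26a3, Marco, Cd163, Hmox1 and Madcam1. Some genes are not reported here. Not found under their names were Ahsp, Eraf, Hba, Hbb-b1, Hbb-b2 and Rhce, and Ccl19 and Ccl21a, with several rows each, were left out. Sequences come from RefSeq (GRCm38.p6) and GENCODE M21.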

Additional observations from a re-analysis of the deposited data

Results flagged for a closer look

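Of the sets of 4 values, 2 held a library far from the others, by a gap to its neighbour, as a part of the whole range, above Dixon's limit for 4 values. In all 40 sets were checked, 4 of them interval bounds of the globin share, and chance alone gives about 1 in 20. Hemgn with TLQP21 had a gap of 0.854 of its range, with TLQP21 4 at 10.04 CPM and the others at 0 to 1.46. Hba-a2 with Saline had a gap of 0.899, with Saline 1 at 18.0 CPM and the others at 42.3 to 45.03.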

How the results depend on the processing

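The count of genes called for treatment was 0 in edgeR, 4 in DESeq2 and 1 in limma voom, and 0 with each library left out in turn. The count between the kinds of library was 68 and depended strongly on tool and filter, at 804 with no filter on low counts, 605 in DESeq2, 320 in limma voom and 23 to 77 with each library left out; with X- and Y-linked genes left out, added after seeing the data, it was 61. The interaction count was 0 in edgeR and 19 in DESeq2. The nearest gene to the mean pattern, Apol11b, was at 0.317 with a prior count of 0.5, and 8 of the 10 nearest genes were shared. With each library left out, 3 values turned in direction. Car1 for treatment ranged from -2.12 to 0.32, turning without Saline 3. Between the kinds Hbb-bs ranged from -0.027 to 0.46, turning without Saline 3, and Hbb-bt from -0.13 to 0.51, turning without Saline 1 and without Saline 3 (-0.10). The causes were not tested. Hemgn no longer passed the threshold between the kinds without Saline 1, 2 or 3 or TLQP21 1, and Klf1 passed it with no filter, in DESeq2 and in limma voom. Car1 gave no value with Saline 3 and TLQP21 4 both left out. With the replicate number as a block, edgeR called 0 genes for treatment, and the log2 fold changes were -1.98 for Slc4a1, -2.10 for Hemgn, -1.23 for Car1 and -0.97 for Klf1, and close to the unblocked values for Alas2 and the globins. Same-numbered libraries had correlations of 0.115, 0.194, 0.271 and -0.0533 in their deviations, and differently numbered ones -0.433 to 0.304. Whether the numbers pair the samples cannot be decided from these values, since same-numbered libraries also share a kind. Below about 10 reads, as for Hemgn and Car1 in Xist libraries, levels are set by single reads.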
